A study of Mus musculus with 2 samples.

Results

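The Mir9 and Mir124a gene copies were examined in small RNA libraries from the midbrain of healthy mouse embryos at embryonic day 12.5. The rule took every table row whose Ensembl identifier carries the GENCODE symbol Mir9-1, Mir9-2, Mir9-3, Mir124a-1, Mir124a-2 or Mir124a-3. It found 5 of these 6 genes, out of 1973 genes listed. Mir9-1 was not analysed as a gene of its own; at its place on chromosome 3 the tables list Gm25641, a microRNA gene on the opposite strand. The series has a single group of 2 libraries, both from strain B6NCrl with male and female embryos pooled. Replicate 1 pooled 120 embryos and replicate 2 pooled 88, and no treatment or other tissue was compared. The labels call these biological replicates and name the same donor entry for both.

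miR-9 and miR-124 are microRNAs, small RNAs cut from both arms (5p and 3p) of a hairpin precursor and loaded into a complex that represses messenger RNAs. Target choice rests largely on the seed, bases 2 to 8 of the mature RNA. miR-9 is abundant in neural progenitors and young neurons and represses progenitor factors such as Hes1 and Nr2e1, and in zebrafish it is known for its part in placing the border between midbrain and hindbrain. miR-124 is the classic microRNA of differentiating neurons, where it represses Ptbp1 and Sox9. Each is made from several gene copies on different chromosomes, so a read of the mature RNA alone does not say which copy it came from.

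The mature RNAs are shown first because all 3 Mir9 hairpins encode exactly the same pair (RefSeq, GRCm38.p6). Capitals mark the seed.
miR-9-5p: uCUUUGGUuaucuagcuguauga
miR-9-3p: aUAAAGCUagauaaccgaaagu
The 3 hairpins follow, with the mature arms in capitals, so that the lower-case flanks and loop show the only bases by which the copies can differ.
Mir9-1: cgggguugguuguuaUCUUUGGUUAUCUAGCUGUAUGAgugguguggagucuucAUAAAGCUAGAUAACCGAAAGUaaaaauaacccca
Mir9-2: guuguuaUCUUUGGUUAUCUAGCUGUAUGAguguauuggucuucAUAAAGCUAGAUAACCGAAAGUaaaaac
Mir9-3: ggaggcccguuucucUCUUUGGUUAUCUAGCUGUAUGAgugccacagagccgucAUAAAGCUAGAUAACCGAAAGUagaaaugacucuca
RefSeq entries were matched for the 3 Mir9 copies and for none of Mir124a-1, Mir124a-2 and Mir124a-3. No other gene in the RefSeq table had a mature microRNA with either miR-9 seed.

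All 6 genes lie on the plus strand of GRCm38, the assembly also called mm10. Mir9-1 (ENSMUSG00000106493) spans bases 88215598 to 88215686 of chromosome 3, within an intron of Gm3764, a long non-coding gene. Mir9-2 (ENSMUSG00000065424.1) lies on chromosome 13 from 83738814 to 83738885 and overlaps an exon of the non-coding gene C130071C03Rik. Mir9-3 (ENSMUSG00000093238.1) spans bases 79505264 to 79505353 of chromosome 7, within an intron of its host Mir9-3hg. Mir124a-1 (ENSMUSG00000065597.1) lies on chromosome 14 from 64590657 to 64590741 over an exon of Mir124a-1hg. Mir124a-2 (ENSMUSG00000093073.1) lies on chromosome 3 from 17795662 to 17795770 over an exon of Mir124-2hg. Mir124a-3 (ENSMUSG00000065454.1) lies on chromosome 2 from 180894040 to 180894107, where its end overlaps an exon of the non-coding gene Gm27032. Symbols and positions came from GENCODE release M21.

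Reads with more than 1 possible place are counted in a separate multimapping row and not for any gene. That row held 3589504 reads in replicate 1 and 2242911 in replicate 2, or 33.4% of all reads in each library. Own-strand reads of genes numbered 4629302 in replicate 1 and 2805487 in replicate 2, and levels are given as CPM, counts per 1000000 of these. Over the 5 genes, 1607 reads were assigned in replicate 1 and 757 in replicate 2, so there were 2234 multimapping reads in replicate 1 and 2963 in replicate 2 for each assigned read. The tables do not say how many of the multimapping reads were miR-9 or miR-124. The levels below therefore describe only the reads that could be placed on a single copy, and they are not the abundance of the mature microRNAs.

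How much of each hairpin's sequence is unshared was measured with windows of 20 bases looked up in all annotated microRNA hairpins, on both strands. The share counts windows in the loop and flanks as well as those over the mature arms. It is therefore not the share of mature reads that could be placed. Of the windows of Mir9-3, 81.7% (58 of 71) occurred in no other hairpin. Mir9-1 followed with 60% (42 of 70) and Mir9-2 with 47.2% (25 of 53). Mir124a-2 had 66.7% (60 of 90), Mir124a-1 62.1% (41 of 66) and Mir124a-3 51.0% (25 of 49). Mir9 windows were shared only with other Mir9 copies or with Gm25641 at the place of Mir9-1, and Mir124a windows only with other Mir124a copies. The annotated hairpins differ in length, from 68 bases for Mir124a-3 to 109 for Mir124a-2, so part of each share reflects how much flank is annotated. The search covered annotated hairpins and not the rest of the genome.

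**Figure D1:**
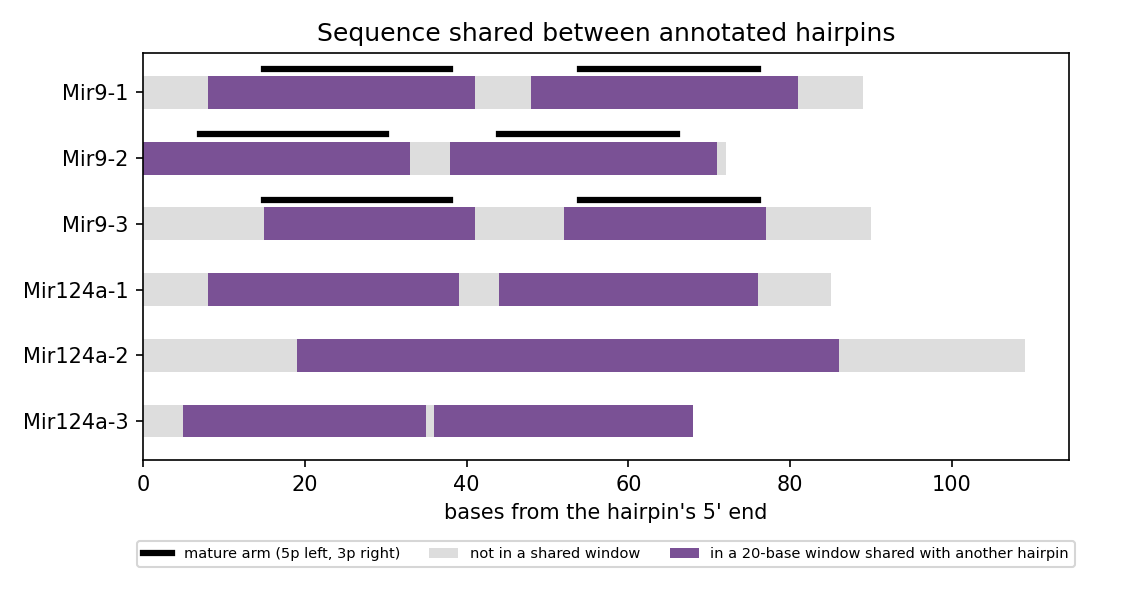
Map of the 6 hairpins, with distance in bases from the 5' end on the x axis. Purple marks bases inside at least 1 window of 20 bases that also occurs in another annotated hairpin, grey marks the rest, and black bars mark the mature arms of the Mir9 copies; in Mir9-3 the shared blocks are 26 and 25 bases long, against 33 and 33 in Mir9-1 and Mir9-2.

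The Mir9 copies part from one another at different distances from the mature arms printed above. Mir9-3 differs from both other copies at the first base before miR-9-5p. After miR-9-3p, Mir9-3 differs from both at the second base. Mir9-1 and Mir9-2 are alike over all 7 bases annotated before miR-9-5p in Mir9-2, and after miR-9-3p they first differ at base 6. After miR-9-5p, all 3 copies share 3 bases and part at base 4. The longest run of bases common to Mir9-1 and Mir9-2 was 33, and that of Mir9-3 with either was 26.

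Mir9-3 held almost all assigned Mir9 reads. It had 1463 own-strand reads in replicate 1 and 691 in replicate 2. These gave 316 CPM (95% Wilson interval 300.2 to 332.6) in replicate 1 and 246 CPM (228.6 to 265.4) in replicate 2, a mean of 281 ± 49.3 CPM (SD, n = 2). By mean CPM it ranked 166 of the 1973 genes, above the median of 148 CPM over the 380 genes with at least 10 reads in both libraries. Mir9-2 had 22 reads in replicate 1 and 8 in replicate 2, or 4.75 CPM (3.14 to 7.20) and 2.85 CPM (1.44 to 5.63), with a mean of 3.80 ± 1.34 CPM (SD, n = 2) and rank 374. Mir9-3 thus stood 66.5-fold above Mir9-2 in replicate 1 and 86.4-fold in replicate 2. The copies are not equally easy to place. To be told from both other copies, a read must reach 3 bases before miR-9-3p for Mir9-3 and 7 for Mir9-2. After miR-9-3p it must reach base 2 for Mir9-3 and base 6 for Mir9-2. The part of this in the fold was not tested. Of the own-strand Mir9 reads, Mir9-3 took 98.5% (97.8 to 99.0%) in replicate 1 and 98.9% (97.8 to 99.4%) in replicate 2. Each interval comes from 1 library and covers counting error only, as if reads were independent. Amplified reads are not independent molecules, so the intervals may be too narrow.

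At the place of Mir9-1 the reads lay on the Mir9-1 strand, which is the opposite strand of the listed gene Gm25641 (ENSMUSG00000092876.1, chromosome 3 from 88215589 to 88215696, minus strand). There were 148 such reads in replicate 1 and 75 in replicate 2, with 0 on the strand of Gm25641 in both. RefSeq gives Gm25641 the synonym Mir9b-1, a microRNA antisense to Mir9-1. Per 1000000 own-strand reads the 148 and 75 came to 32.0 (27.2 to 37.6) and 26.7 (21.3 to 33.5), a mean of 29.4 ± 3.70 (SD, n = 2). With these reads counted to the family, the place of Mir9-1 held 9.06% of Mir9 reads (7.77 to 10.6%) in replicate 1 and 9.69% (7.80 to 12.0%) in replicate 2. Mir9-3 then held 89.6% and 89.3%, and Mir9-2 1.35% and 1.03%. The order of the 3 places was the same in both libraries, with no overlap of intervals.

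The Mir124a copies carried few reads that could be placed. Mir124a-2 was highest, with 69 reads in replicate 1 and 40 in replicate 2, or 14.9 CPM (11.8 to 18.9) and 14.3 CPM (10.5 to 19.4), and a mean of 14.6 ± 0.46 CPM (SD, n = 2; rank 313). Mir124a-3 had 25 and 15 reads, or 5.40 CPM (3.66 to 7.97) and 5.35 CPM (3.24 to 8.82), with rank 355. Mir124a-1 had 28 reads in replicate 1 and 3 in replicate 2, or 6.05 CPM (4.18 to 8.74) and 1.07 CPM (0.36 to 3.14), with rank 386. The 3 reads of replicate 2 are at the floor of 3 counts, which corresponds to 0.65 CPM in replicate 1 and 1.07 CPM in replicate 2.

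Within the family, Mir124a-2 took 56.6% of own-strand reads (47.7 to 65.0%) in replicate 1 and 69.0% (56.2 to 79.4%) in replicate 2, above both other copies in each library. Mir124a-1 took 23.0% (16.4 to 31.2%) in replicate 1 and 5.17% (1.77 to 14.1%) in replicate 2. Mir124a-3 took 20.5% (14.3 to 28.5%) and 25.9% (16.3 to 38.4%). Mir124a-1 and Mir124a-3 overlapped in replicate 1 and not in replicate 2, so the copies below Mir124a-2 have no settled order. The 2 listed Mir9 copies summed to 321 CPM in replicate 1 and 249 CPM in replicate 2, against 26.4 and 20.7 CPM for the 3 Mir124a copies, and were 12.2-fold and 12.1-fold higher.

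**Figure D2:**
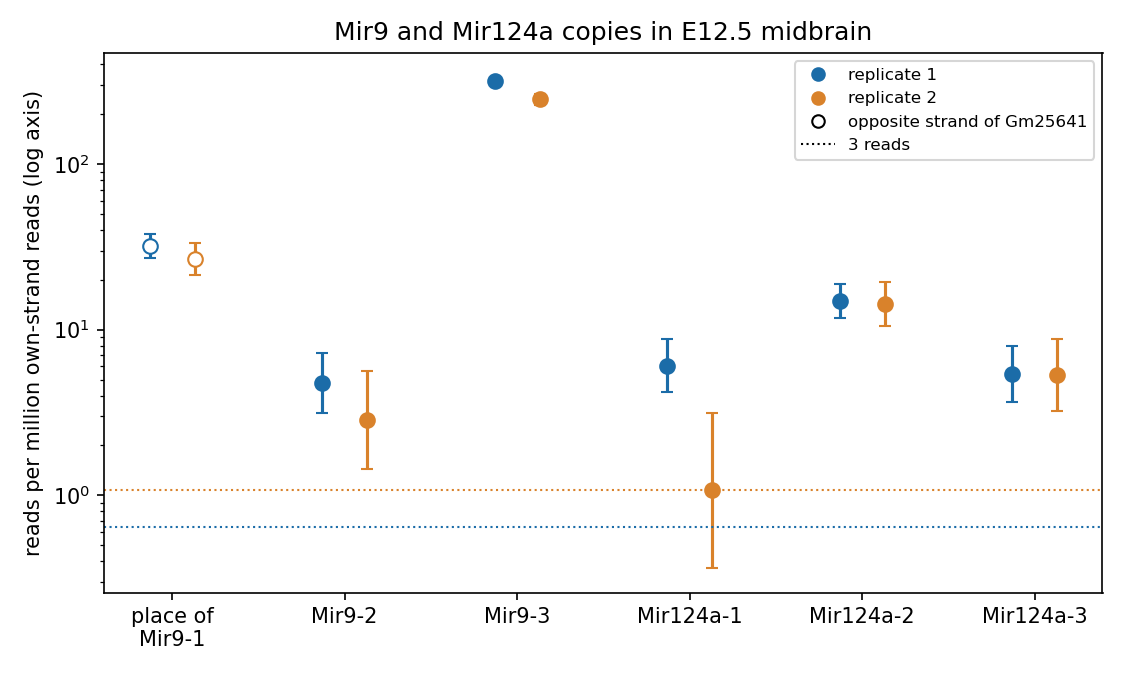
Reads per 1000000 own-strand reads (log axis) of each copy, with replicate 1 in blue and replicate 2 in orange and bars for 95% Wilson intervals. Open points are reads on the opposite strand of Gm25641, at the place of Mir9-1, and dotted lines mark 3 reads in each library; Mir9-3 stands at 316 and 246 CPM, and Mir124a-1 in replicate 2 lies on its line.

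Over the 5 genes the order of mean CPM was Mir9-3, Mir124a-2, Mir124a-3, Mir9-2 and Mir124a-1. The intervals of Mir9-3 and of Mir124a-2 overlapped with no other copy in either library. Those of Mir124a-3 and Mir9-2 overlapped in both libraries, as did those of Mir9-2 and Mir124a-1. In these tissue libraries, fewer cells of a type and less RNA per cell cannot be told apart.

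Strand separated the copies as well. RefSeq lists a microRNA on the minus strand over each Mir9 copy (Gm25641, Gm51268 and Gm51285, with the synonyms Mir9b-1, Mir9b-2 and Mir9b-3). It also lists Gm51272, with the synonym Mir124b, over Mir124a-2, but its strand was not given. Opposite-strand reads of Mir9-3 numbered 0 in replicate 1 and 2 in replicate 2, under the floor, while Mir9-2, Mir124a-1 and Mir124a-2 had 0 in both. Mir124a-3 was the exception, with 19 in replicate 1 and 12 in replicate 2, and RefSeq lists no other microRNA gene over it. They made up 43.2% (29.7 to 57.8%) and 44.4% (27.6 to 62.7%) of its reads, against 2.40% and 2.47% over all genes. Only 6 genes had at least 10 reads on each strand in both libraries. The others (Mir708, Mir337, Mir203, Mir3074-1 and Mir219a-1) each had at least 1023 own-strand reads in each library. A count that ignored strand would thus raise Mir124a-3 to 9.33 CPM.

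The levels of Mir9-3 (281 CPM) and Mir124a-2 (14.6 CPM) were set beside other microRNA genes of neural tissue. Mir137 and Mir153, single-locus microRNAs of neurons whose windows were all unshared, had 3894 ± 467 and 3399 ± 159 CPM (SD, n = 2). Mir488 and Mir383, also single-locus, had 127.0 ± 10.7 and 88.4 ± 12.0 CPM. The 14 genes of 7 neural families with 2 listed copies each (Mir7, Mir128, Mir129, Mir135a, Mir138, Mir218 and Mir219a) ranged from 22.4 CPM for Mir218-1 to 3042 CPM for Mir219a-2. By mean CPM all 14 stood above Mir124a-2, and 5 stood above Mir9-3. Of these 5, Mir138-1 was below Mir9-3 in replicate 2 (214 against 246 CPM). Of the windows of the listed Mir9 and Mir124a copies 47.2 to 81.7% were unshared, against 83.3 to 96.7% for these 14 genes. Both mature arms are the same in all 3 Mir9 copies, and less sequence is shared in the 7 families. The gaps between copies given next therefore do not compare like reads. Mir9-3 stood 66.5-fold and 86.4-fold above Mir9-2, whereas in the 7 families the higher copy stood 1.16-fold (Mir138, replicate 2) to 3.42-fold (Mir219a, replicate 2) above the lower. A gap of this size was not particular to Mir9. Of the 22 other families with numbered copies and at least 1 read of the lowest copy in both libraries, looked up after these values were seen, Mir181b had a like gap, with Mir181b-2 66.4-fold and 86.6-fold above Mir181b-1. Mir194-2 had 457 and 210 reads against 3 and 2 for Mir194-1. Mir103-2 stood 10.6-fold and 15.1-fold above Mir103-1, and the median over the 22 families was 2.89-fold in replicate 1 and 3.03-fold in replicate 2. These are descriptions of 2 libraries, and the part of shared sequence in the levels was not tested. Among the 380 genes with at least 10 reads in both libraries, 83 had a shared window, and 16 had a share of unshared windows as low as that of Mir9-3 or lower, Mir9-3, Mir124a-2 and Mir124a-3 included.

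**Figure D3:**
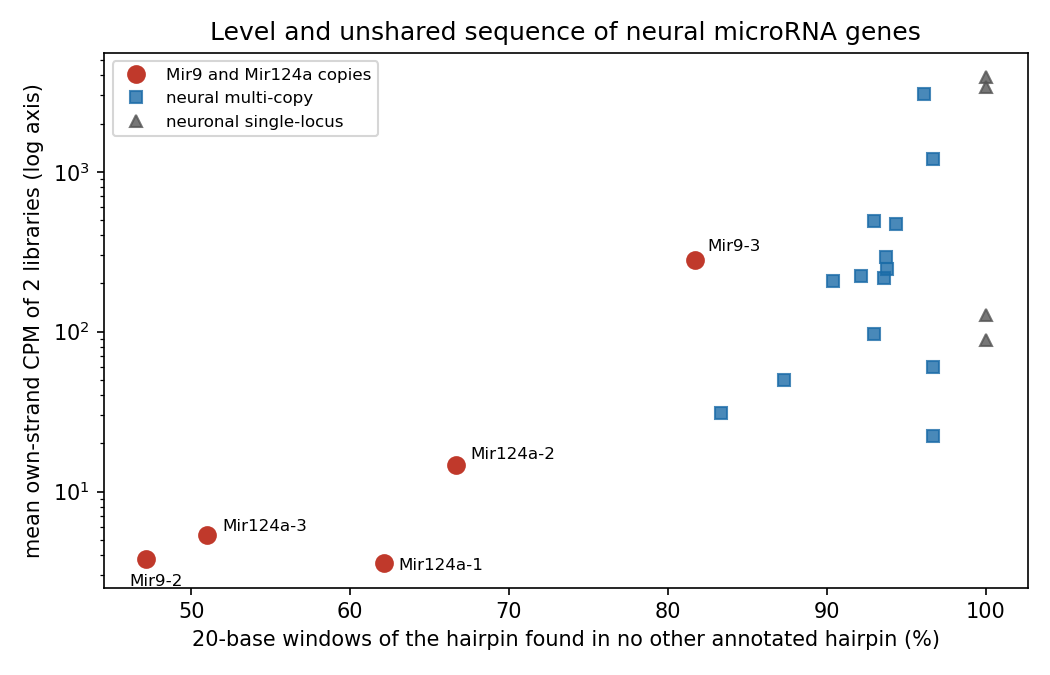
Mean own-strand CPM of 2 libraries (log axis) against the percentage of a hairpin's 20-base windows found in no other annotated hairpin. Red points are the 5 Mir9 and Mir124a copies, blue squares the 14 genes of neural families with 2 listed copies and grey triangles Mir137, Mir153, Mir488 and Mir383; the 4 red points under 70% unshared lie between 3.56 and 14.6 CPM, and Mir9-3 at 81.7% lies at 281 CPM.

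The libraries were then compared with each other gene by gene, with Fisher's exact test (two-sided) on a gene's reads and the rest of the own-strand total, and p-values were adjusted by Benjamini-Hochberg over all 380 genes tested. The test weighs 2 libraries against counting noise and compares no conditions. Of the 5 copies, 3 had at least 10 reads in both libraries and were tested. Mir9-3 was called, 1.28-fold higher in replicate 1 (log2 ratio 0.36 ± 0.07, counting SE, adjusted exact p = 1.48e-07). Mir124a-2 (log2 ratio 0.064 ± 0.29, adjusted exact p = 0.903) and Mir124a-3 (0.014 ± 0.47, adjusted exact p = 1) were not called, with 95% exact intervals of the ratio from 0.70 to 1.58 and from 0.51 to 2.06. Over all 380 genes 54.2% were called, 27.1% higher in replicate 1 and 27.1% lower, so calls were common and 1 of 3 copies does not stand out. The median log2 ratio of the 3 was 0.064, against -0.035 over all 380 genes.

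Mir124a-1 and Mir9-2 missed the filter through replicate 2. At the rate of replicate 1, Mir124a-1 would have had 17.0 reads in replicate 2, where it had 3, and Mir9-2 13.3, where it had 8. The ratio of replicate 1 to replicate 2 was 5.66 for Mir124a-1 (95% exact interval 1.75 to 29.1) and 1.67 for Mir9-2 (0.71 to 4.33). With the filter dropped and 746 genes tested, Mir124a-1 was called higher in replicate 1 (adjusted exact p = 0.00305) and Mir9-2 was not (adjusted exact p = 0.563), against 26.7% of all genes called. The reads at the place of Mir9-1 gave a ratio of 1.20 (0.90 to 1.60), which includes no difference. The ratio of the summed Mir9 copies was 1.29 (1.18 to 1.41) and that of the summed Mir124a copies 1.27 (0.93 to 1.77).

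Markers of other tissue moved between the same libraries. The choroid plexus list (Mir204, Mir1298, Mir448 and Mir1264) summed to 1446 CPM in replicate 1 and 426 CPM in replicate 2, with 4 of 4 genes called higher in replicate 1. The Hox cluster list, microRNAs of hindbrain and spinal cord, summed to 225 CPM in replicate 1 and 419 CPM in replicate 2, and all 4 of its 6 genes that were tested were called lower in replicate 1. Mir196a-1 was at 0 in both libraries. Endothelial Mir126a stood at 23434 and 26243 CPM and was called lower in replicate 1. The 3 erythroid markers (Mir144, Mir451a, Mir486) summed to 413 and 271 CPM, with 1 gene called in each direction. Over all 380 genes tested, 27.1% were called higher in replicate 1 and 27.1% lower, so calls were common. The part of these markers in the difference of Mir9-3 or of Mir124a-1 was not tested.

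**Figure D4:**
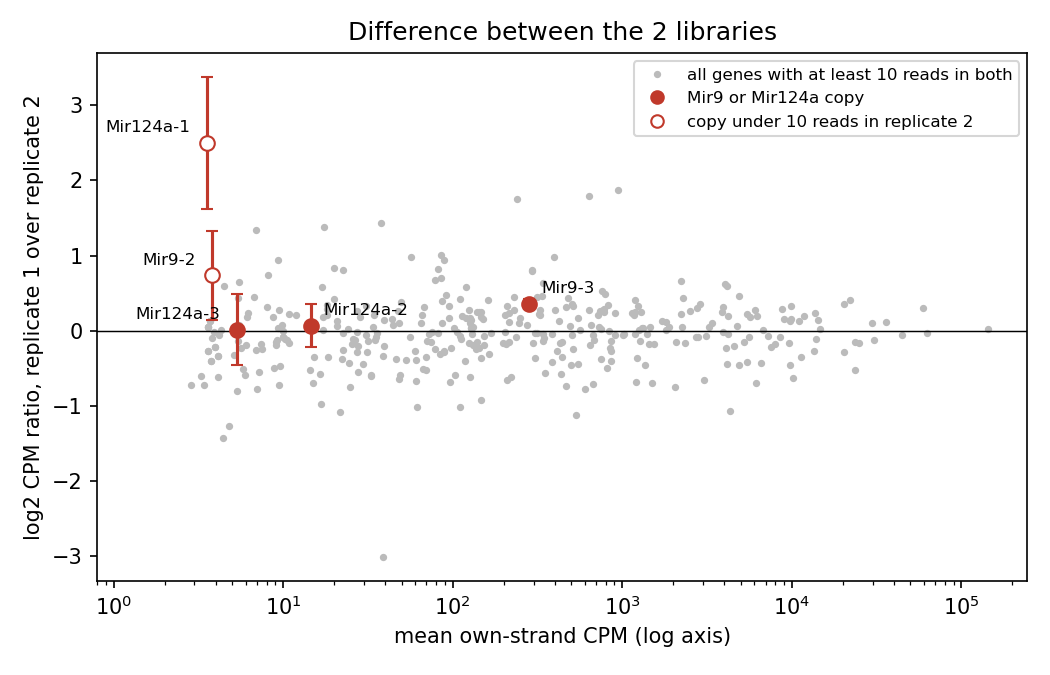
Log2 ratio of CPM, replicate 1 over replicate 2, against mean own-strand CPM (log axis). Grey points are the 380 genes with at least 10 reads in both libraries, filled red points the 3 copies tested and open red points the 2 copies under 10 reads in replicate 2, with bars of 1 counting SE; Mir9-3 lies at 0.36, and Mir124a-1 lies at 2.50 with a wide bar.

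By Euclidean distance in log2(CPM + 1) over the 2 libraries, the 3 genes closest to Mir9-3 were Mir148b (distance 0.20; 283 and 269 CPM), Mir18b (0.23; 363 and 267 CPM) and Mir155 (0.26; 265 and 235 CPM). Those closest to Mir124a-2 were Mir3097 (0.09), Mir5618 (0.29) and Mir504 (0.31). Those closest to Mir124a-3 were Mir6546 (0.05), Mir7083 (0.09) and Mir7069 (0.16). The summed Mir9 copies lay nearest to Mir18b (0.20), Mir148b (0.21) and Mir770 (0.28), and the summed Mir124a copies to Mir582 (0.23), Mir212 (0.27) and Mir206 (0.27). With only 2 libraries, this likeness is mainly one of level.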

How the data were processed

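The deposited tables hold raw, unnormalized read counts for microRNA genes, on assembly mm10 with annotation M4 per the deposited read-me files. Which aligner and counter made them was not given in the sources used here. For each gene the tables give either-strand, own-strand and opposite-strand reads. Own-strand reads were 97.6% and 97.5% of either-strand gene reads and were used. Rows that name no gene (56.9% and 58.2% of reads in replicates 1 and 2) stayed out of totals and tests. CPM were not divided by hairpin length, since a small RNA read spans 1 mature product.

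Of 1973 identifiers, 1894 matched GENCODE M21. Intervals are 95% Wilson intervals, and ratio intervals are exact. Ratios are replicate 1 over replicate 2. Fisher's exact test (scipy 1.17.1) covered genes with at least 10 reads in both libraries, at an adjusted p of 0.05. TMM factors came from edgeR 4.0.16 and size factors from DESeq2 1.42.0. With 2 libraries of 1 group no count model was fitted. The labels do not state separate litters, so differences between the libraries may be technical. The p-values set these differences against counting noise and estimate neither technical nor biological spread.

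Named genes were the copies, genes overlapping them, genes sharing a miR-9 seed, the listed neural genes and markers, and the 3 closest genes in level; the 5 other genes with reads on both strands were named after their values were seen. Members and lists were chosen with earlier results of these data known.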

Additional observations from a re-analysis of the deposited data

Results flagged for a closer look

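Opposite-strand reads stand outside the own-strand counts and exceeded the 3 counts that a count of 0 allows at 2 of the places of the Mir9 and Mir124a copies. Over all genes, 22 had at least 3 such reads in both libraries, and Gm25641 ranked 10 by their mean number. On the opposite strand of Gm25641, at the place of Mir9-1, there were 148 reads in replicate 1 and 75 in replicate 2. On the opposite strand of Mir124a-3 there were 19 reads in replicate 1 and 12 in replicate 2, where RefSeq lists no other microRNA gene. There were no control samples to set these against.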

How the results depend on the processing

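Per 1000000 reads of the whole library, unmapped and multimapping reads included, mean levels were 120 for Mir9-3, 1.62 for Mir9-2, 6.19 for Mir124a-2, 2.28 for Mir124a-3 and 1.53 for Mir124a-1, with 121 for the summed Mir9 copies and 9.99 for the summed Mir124a copies. With the most abundant gene left out of the total, Mir124a-2 stood at 17.0 CPM and Mir124a-3 at 6.27 CPM. With reads of either strand counted, Mir124a-3 stood at 9.33 CPM and its log2 ratio was -0.017 ± 0.35, against 0.014 with own-strand reads, uncalled in both. Adding the reads at the place of Mir9-1, chosen after seeing the data, gave 314 CPM for the Mir9 copies. The Mir9-3 call held with TMM factors, DESeq2 size factors, no filter and reads of either strand (log2 ratio 0.36 to 0.40). The number of genes called was 205 of 380 with TMM factors and 201 of 380 with DESeq2 size factors, against 206 of 380. It was 214 of 391 (54.7%) with reads of either strand and 199 of 746 (26.7%) with no filter. DESeq2 size factors gave 112 genes higher and 89 lower in replicate 1, against 103 each. Without 1 replicate, Mir124a-1 was 1.07 or 6.05 CPM, and the Mir9 sum 249 or 321 CPM. With windows of 18 and 22 bases the unshared share was 76.7% and 87.0% for Mir9-3, and 41.8% and 52.9% for Mir9-2. The order of the hairpins by this share was the same at 18, 20 and 22 bases. No paired analysis was possible because the series has 1 group. The levels of the Mir124a copies and Mir9-2 rest on few placed reads, at most 69 in a library. The parts of depth and of multimapping in these low counts were not tested.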
